A study of Mus musculus with 20 samples.

Results

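The genes described here encode the collagen chains of the mouse. They are the protein-coding genes whose GENCODE M21 symbol is Col, a number, the letter a and a second number, a rule that uses names and no measured value. It finds 44 genes among the 46603 gene identifiers counted. Of these, 28 had enough counts to be tested, 14 were counted but too low to be tested, and Col19a1 and Col10a1 had no count in any library.

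Poly(A) RNA of whole liver was sequenced in 20 libraries, 5 in each of 4 groups, from male mice aged 2 months fed standard chow. The wild-type (WT) mice were C57BL/6J bought from The Jackson Laboratory. The knockout (KO) mice, EedHepKO, carry an Alb:Cre transgene, which makes Cre recombinase under the albumin promoter, and the Eedflox allele, in which loxP sites flank Eed exons 3 and 6. The labels give the strain of both as C57BL6/J. Eed encodes a core subunit of polycomb repressive complex 2, which places the repressive mark H3K27me3 on chromatin. The albumin promoter acts in hepatocytes, so the deletion is not aimed at the stellate cells, fibroblasts and endothelial cells that also make collagen. Baseline RNA came from lobes 1, 2 and 3, taken out at partial hepatectomy (PHx), an operation after which the remaining liver regrows. RNA after PHx came from lobes 4, 5 and 6 of the same mice, collected at 30 h (1 mouse of each genotype), 40 h (2 of each) or 48 h (2 of each). Genotype and colony of origin cannot be told apart, nor can PHx and lobe.

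Collagen chains wind into helical trimers that are secreted and assembled outside the cell. Fibrillar collagens form the cables of scar and portal tract. Type IV collagen forms the sheet-like network of basement membranes, and the remaining classes coat fibrils, link them, span cell membranes or lie at the edge of basement membranes. In liver the fibrillar chains are made mainly by stellate cells and portal fibroblasts, while hepatocytes are a known source of the type XVIII chain.

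Total counts ran from 21634890 to 30461351 per library. Eed itself, the targeted gene, stood at 15.3 to 18.4 CPM in WT and 3.83 to 7.52 CPM in KO livers at baseline, and at 14.6 to 23.2 and 2.75 to 5.82 CPM after PHx. Levels are CPM, each count scaled to the library total after TMM normalisation. The 7 hepatocyte markers found in the data, of 8 listed, summed to 123235 to 143644 CPM in WT and 80463 to 106508 CPM in KO baseline livers, and none of them was at 0. KO baseline library 7 held the highest value of its group in 15 of the 28 tested collagen genes, so the count of called genes at baseline is also given without it. WT baseline library 2 was highest of its group in 13 genes, and KO library 10 after PHx in 14. WT library 4 and KO library 8 after PHx were lowest of their groups in 14 and 13. WT baseline library 1, whose title has no mouse number, differed from the other WT baseline libraries by a chi-square per degree of freedom of 331 to 361, where those differed from each other by 27.2 to 40.7. All 17 collagen calls at baseline were kept without it.

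The 6 chains of type IV collagen lie in head-to-head gene pairs, and bases upstream of these genes are shown because both partners of a pair start close together, while the values below differ most between the partners Col4a5 and Col4a6. The Col4a5 and Col4a6 start sites face away from each other across 1308 bases, those of Col4a4 and Col4a3 across 71 bases, and the first exons of Col4a1 and Col4a2 overlap by 22 bases. The sequences are from RefSeq for GRCm38.p6, written 5′ to 3′ on the strand of the gene in lower case, with each CG dinucleotide in capitals. Only bases before the start site that no GENCODE exon covers are printed. Col3a1, the most abundant fibrillar chain gene per kb, is added because no CG occurs in its stretch.
Col4a5 (chrX:141475169-141475384, plus strand): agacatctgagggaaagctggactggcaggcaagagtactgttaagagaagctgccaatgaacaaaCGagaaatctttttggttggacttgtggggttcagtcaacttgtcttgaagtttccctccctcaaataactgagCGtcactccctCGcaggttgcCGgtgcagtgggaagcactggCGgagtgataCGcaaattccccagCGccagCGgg
Col4a6 (chrX:141474077-141474326, minus strand): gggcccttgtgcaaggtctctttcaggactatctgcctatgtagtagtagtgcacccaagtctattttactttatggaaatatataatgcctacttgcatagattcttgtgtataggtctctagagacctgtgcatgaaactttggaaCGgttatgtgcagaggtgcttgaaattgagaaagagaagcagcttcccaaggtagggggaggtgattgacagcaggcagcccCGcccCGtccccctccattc
Col4a4 and, on the other strand, Col4a3 (chr1:82586850-82586920, minus strand): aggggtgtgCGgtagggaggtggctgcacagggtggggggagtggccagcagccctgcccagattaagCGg
Col3a1 (chr1:45311288-45311537, plus strand): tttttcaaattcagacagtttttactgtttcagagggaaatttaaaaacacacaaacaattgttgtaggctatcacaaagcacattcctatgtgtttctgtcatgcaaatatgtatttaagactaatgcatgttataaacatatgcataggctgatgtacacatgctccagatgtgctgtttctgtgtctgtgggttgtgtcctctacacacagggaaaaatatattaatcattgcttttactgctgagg

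Promoter windows of 300 bases, 250 before and 50 after the start, were at hand for 35 of the 44 genes. Where a gene had several windows, the one with the most CG dinucleotides was used. The count of CG ran from 0 in Col3a1 and Col28a1 to 37 in Col4a1, with a median of 12 in the collagen genes and 8 in the 27025 genes of the table. Col4a2 had 33, Col4a4 14, Col4a5 11 and Col4a6 3. The letters GGGCGG, searched on both strands and themselves holding a CG, occurred in 62.9% of the collagen windows and 37.3% of all genes' windows. CCAAT occurred in 37.1% and 37.4%, and TATAAA in 14.3% and 13.7%. The 11 windows of genes called higher in KO baseline liver had a median of 13 CG, and the 11 windows of tested genes not called there had a median of 16.

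Genes of 5 collagen classes (basement membrane, fibrillar, fibril-associated, beaded filament and short-chain) were higher in KO than in WT liver at baseline. Of the 28 tested genes, 17 were higher in KO livers at an edgeR adjusted p under 0.05, against 11.1% of all 14661 genes tested, and none was lower, against 4.89%. No gene was lower at an unadjusted p under 0.05 either, nor by DESeq2. The median log2 fold change of the 28 genes was 1.31, and that of all genes tested was -0.03. The median stayed 1.31 with Col22a1 set at its lower bound. Without KO baseline library 7 the count was 16, with only the Col12a1 call lost, and without any single WT baseline library it was 16 or 17. Fitted on the 10 baseline libraries alone, 20 of 25 tested collagen genes were higher and 1 lower, where 21.4% and 18% of all genes were. In bulk liver, more cells that make a collagen and more RNA per cell cannot be told apart.

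**Figure D1:**
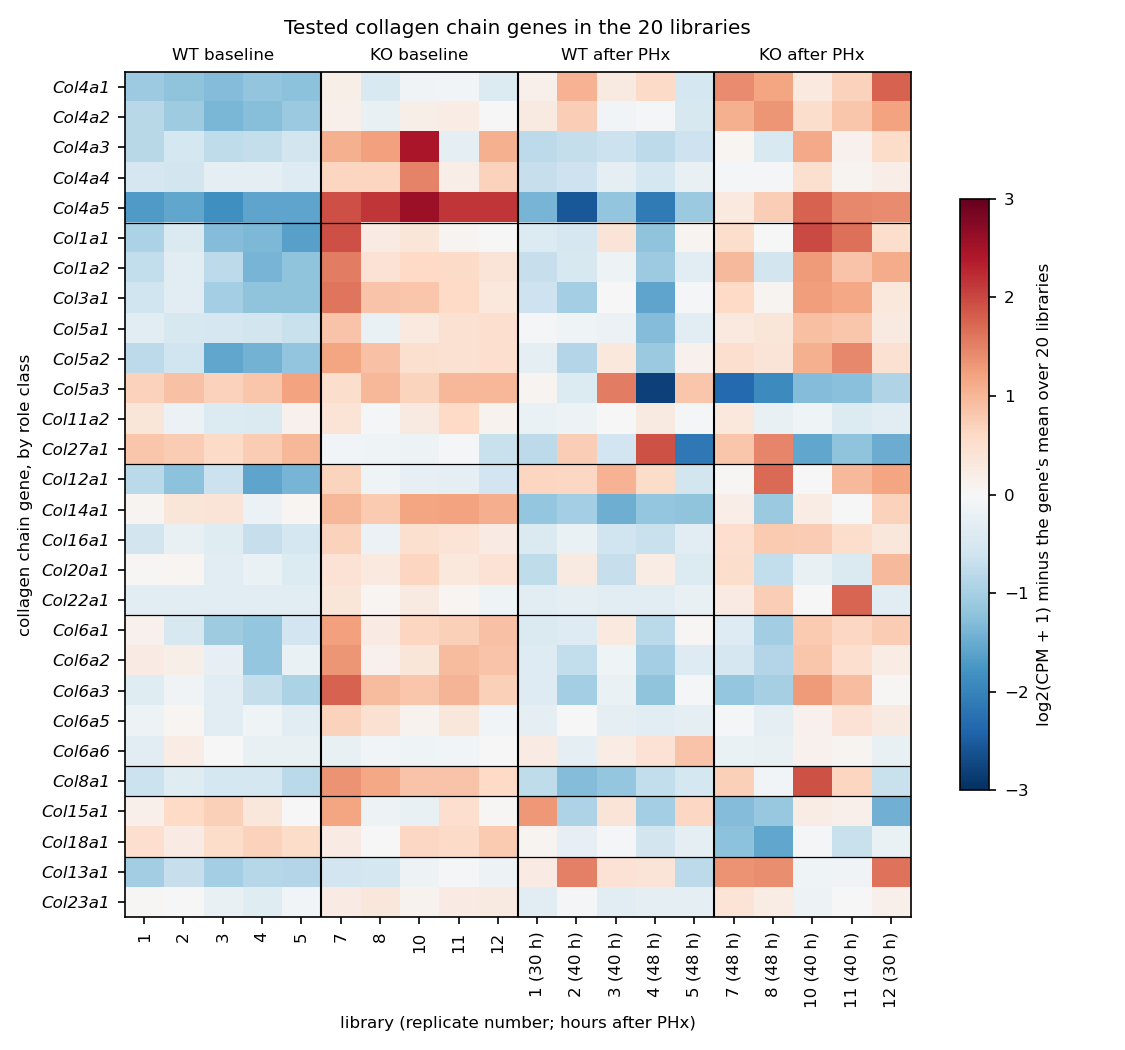
Heat map of the 28 tested collagen chain genes (rows, by role class) in the 20 libraries (columns, by group, with replicate number and hours after PHx). Colour gives log2(CPM + 1) minus the mean of the gene over the 20 libraries. Col4a5 is red in all 5 KO baseline libraries and blue in every WT library, while Col5a3 is blue in all 5 KO libraries after PHx.

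The type IV chains, the basement membrane class, held the gene with the lowest adjusted p of all collagen genes at baseline. Per-library values below follow the order of libraries 1, 2, 3, 4 and 5 in WT and 7, 8, 10, 11 and 12 in KO. These are the mouse numbers in the titles, except that WT baseline library 1, which has none, is given first. After PHx this order is 30, 40, 40, 48 and 48 h in WT and 48, 48, 40, 40 and 30 h in KO. Col4a5 (chrX:141475385-141689234, plus strand), the X-linked chain that joins the alpha3 and alpha4 chains in kidney and the alpha6 chain elsewhere, stood at 0.975, 1.15, 0.772, 1.15 and 1.15 CPM in WT baseline livers. In KO baseline livers it stood at 23.5, 27.3, 36.5, 27.4 and 27.4 CPM. Every KO liver was above every WT liver (27.2-fold, log2 fold change 4.77, SE 0.51, edgeR adjusted p = 3.63e-06). After PHx, Col4a5 was at 1.44, 0.087, 1.79, 0.461 and 1.96 CPM in WT and 6.8, 9.69, 20.8, 16.4 and 15.9 CPM in KO. The groups did not overlap at this stage either (12-fold, log2 fold change 3.59, SE 0.48, edgeR adjusted p = 3.16e-05). Its level per kb relative to Col4a1 ran from 0.0291 to 0.0408 in WT and from 0.31 to 0.593 in KO baseline livers.

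Its head-to-head neighbour Col4a6 (chrX:141165403-141474076, minus strand) had 83 counts in all 20 libraries and was not tested. Col4a6 stood at 0.065, 0, 0.0515, 0 and 0.0459 CPM in WT and 0.332, 0.0423, 0.345, 0.0831 and 1.03 CPM in KO baseline livers. With 3 counts in the WT group and 45 in the KO group, the ratio was 11.5 with an exact 95% counting interval of 3.7 to 57.9, which covers counting error only. KO library 12 held 22 of the 45 counts, and without it the ratio was 7.06 (2.13 to 36.7). After PHx, Col4a6 was at 0, 0.0435, 0, 0.0355 and 0.137 CPM in WT and 0.0599, 0.0439, 0.0763, 0.50 and 0.237 CPM in KO. The upstream stretches printed above hold 8 CG for Col4a5 and 3 for Col4a6.

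Col4a3 (chr1:82586921-82722059, plus strand) and Col4a4 (chr1:82448423-82586849, minus strand), the pair mutated in recessive Alport kidney disease, were low in WT liver. Col4a3 stood at 0, 0.25, 0.0515, 0.0917 and 0.229 CPM in WT and 2.75, 3.21, 8.83, 0.457 and 2.77 CPM in KO baseline livers. KO baseline library 10 held the highest value and library 11 the lowest of the KO group, and the groups did not overlap (log2 fold change 4.76, SE 0.81, edgeR adjusted p = 0.000445). After PHx, Col4a3 was at 0.0436, 0.087, 0.152, 0.0355 and 0.172 CPM in WT and 0.869, 0.307, 2.98, 0.973 and 1.61 CPM in KO, again without overlap (log2 fold change 3.69, SE 0.79, edgeR adjusted p = 0.00209). Col4a3 shares 563 exon bases with C430014B12Rik on the opposite strand, a gene at 0.650 to 1.85 CPM in WT and 0.664 to 1.52 CPM in KO baseline livers, and the strand setting of the counting is not given in the sources used here.

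Col4a4 followed the same order of groups. Its levels were 0.13, 0.10, 0.309, 0.321 and 0.229 CPM in WT and 1.53, 1.52, 3.48, 0.831 and 1.6 CPM in KO baseline livers (log2 fold change 3.00, SE 0.63, edgeR adjusted p = 0.00292). After PHx, Col4a4 was at 0, 0.0435, 0.342, 0.106 and 0.378 CPM in WT and 0.569, 0.549, 1.26, 0.695 and 0.852 CPM in KO (log2 fold change 2.10, SE 0.62, edgeR adjusted p = 0.018), a call lost in a fit on the 10 libraries after PHx alone (edgeR adjusted p = 0.0946). The KO and WT livers did not overlap at either stage. In the 5 KO baseline livers the ratio of Col4a3 to Col4a4 per kb ran from 0.586 to 2.7.

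Col4a1 (chr8:11198423-11312826, minus strand) and Col4a2 (chr8:11312805-11449287, plus strand), whose products form the common type IV trimer of most basement membranes including the vessel wall, were the most abundant collagen genes per kb after Col18a1. Col4a1 stood at 34, 31.5, 29.4, 32 and 31.2 CPM in WT and 84.1, 53.5, 68.5, 69.7 and 55.6 CPM in KO baseline livers. All KO livers were higher (2.1-fold, log2 fold change 1.07, SE 0.26, edgeR adjusted p = 0.00916). Col4a2 stood at 26.3, 22.2, 17.8, 19.2 and 21.7 CPM in WT and 53.2, 40.8, 53.9, 56 and 48.5 CPM in KO baseline livers, again without overlap (2.36-fold, log2 fold change 1.24, SE 0.20, edgeR adjusted p = 0.00033). The ratio of Col4a1 to Col4a2 per kb was 1.15 to 1.48 in WT and 1.02 to 1.4 in KO baseline livers. The log2 fold change was 1.07 for Col4a1 and 1.24 for Col4a2, and 4.77 for Col4a5.

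**Figure D2:**
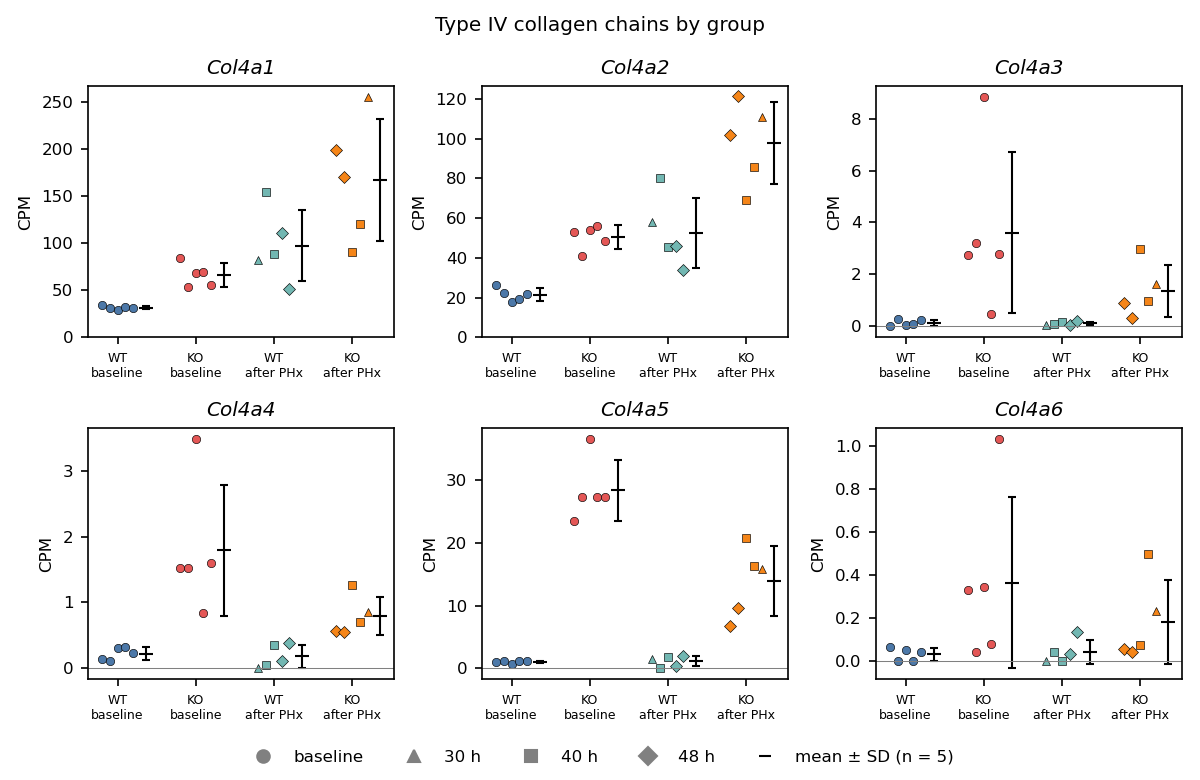
CPM of the 6 type IV chain genes in each library (points; marker shape gives hours after PHx) with the mean and SD of each group of 5. The 5 KO baseline livers sit between 23.5 and 36.5 CPM for Col4a5, where no WT liver of either stage exceeds 1.96 CPM. Each panel has its own CPM axis.

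The 8 sinusoidal endothelial markers summed to 207 to 249 CPM in WT and 266 to 316 CPM in KO baseline livers, with 1 of 8 (Flt4) called higher, against 11.1% of all genes tested. The 7 cholangiocyte markers, of which 6 were tested and 1 (Spp1) called higher at baseline, summed to 34.1 to 79.1 and 73.8 to 384 CPM. After PHx these sums were 89.1 to 163 in WT and 110.2 to 260.4 CPM in KO for endothelium, with 1 of 8 called higher. For cholangiocytes they were 35.2 to 256 and 134 to 595 CPM, with 4 of 6 tested called higher, against 16% of all genes. No marker of either list was at 0 in a whole group. The part of these cell types in the type IV values was not tested.

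The chains of collagen types I and III and both main chains of type V were higher in KO baseline livers. Of the 11 fibrillar genes 8 were tested, and 5 were called higher (Col1a1, Col1a2, Col3a1, Col5a1 and Col5a2), against 11.1% of all genes. Col1a1 (chr11:94936224-94953042, plus strand), the main chain of type I collagen, stood at 5.14, 7.8, 3.86, 3.71 and 2.84 CPM in WT and 44.6, 13.1, 14.3, 11.6 and 11 CPM in KO baseline livers. KO library 7 lay far above the other four, which still exceeded every WT liver (4.06-fold, log2 fold change 2.02, SE 0.47, edgeR adjusted p = 0.00609). Without library 7 the call held, at a lower fold (log2 fold change 1.48, SE 0.42, edgeR adjusted p = 0.0277). Its partner Col1a2 (chr6:4504814-4541544, plus strand) stood at 8.45, 11.7, 8.13, 5.00 and 5.83 CPM in WT and 44.9, 20.5, 22.9, 22.5 and 19.8 CPM in KO baseline livers, without overlap (log2 fold change 1.74, SE 0.33, edgeR adjusted p = 0.00123). Without library 7 the log2 fold change of Col1a2 was 1.51 (edgeR adjusted p = 0.00525).

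Col3a1 (chr1:45311538-45349706, plus strand), the chain of the thin reticulin fibres that line the sinusoids, stood at 29.3, 36, 21.7, 18.8 and 19 CPM in WT and 139, 82.4, 81.4, 68.9 and 56 CPM in KO baseline livers. The groups did not overlap (3.42-fold, log2 fold change 1.78, SE 0.33, edgeR adjusted p = 0.000938). Per kb, Col3a1 was 3.09 to 4.46 times Col1a1 in WT and 2.08 to 4.19 times in KO baseline livers, ranges that overlap.

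Type V chains help start type I fibrils. Col5a1 (chr2:27886425-28039514, plus strand) stood at 6.63, 5.9, 5.81, 5.55 and 5.09 CPM in WT and 16.3, 7.35, 10.8, 12.2 and 12.6 CPM in KO baseline livers (log2 fold change 1.03, SE 0.26, edgeR adjusted p = 0.01). Col5a2 (chr1:45374321-45503282, minus strand) stood at 2.73, 3.25, 1.18, 1.42 and 1.83 CPM in WT and 13.7, 10.8, 7.97, 7.89 and 8.17 CPM in KO baseline livers (log2 fold change 2.22, SE 0.37, edgeR adjusted p = 0.000421). Neither gene overlapped between genotypes. The log2 fold change of Col5a2 was 2.22 and that of Col5a1 1.03, and the ratio of Col5a2 to Col5a1 per kb ran from 0.18 to 0.488 in WT and from 0.574 to 1.3 in KO livers. The third type V chain, Col5a3 (chr9:20770050-20815067, minus strand), stood at 20.3, 23.2, 20.1, 22.4 and 29.2 CPM in WT and 18, 25, 19.7, 25.3 and 25 CPM in KO baseline livers and was not called (log2 fold change -0.03, SE 0.52, edgeR adjusted p = 0.977). Its groups overlapped.

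**Figure D3:**
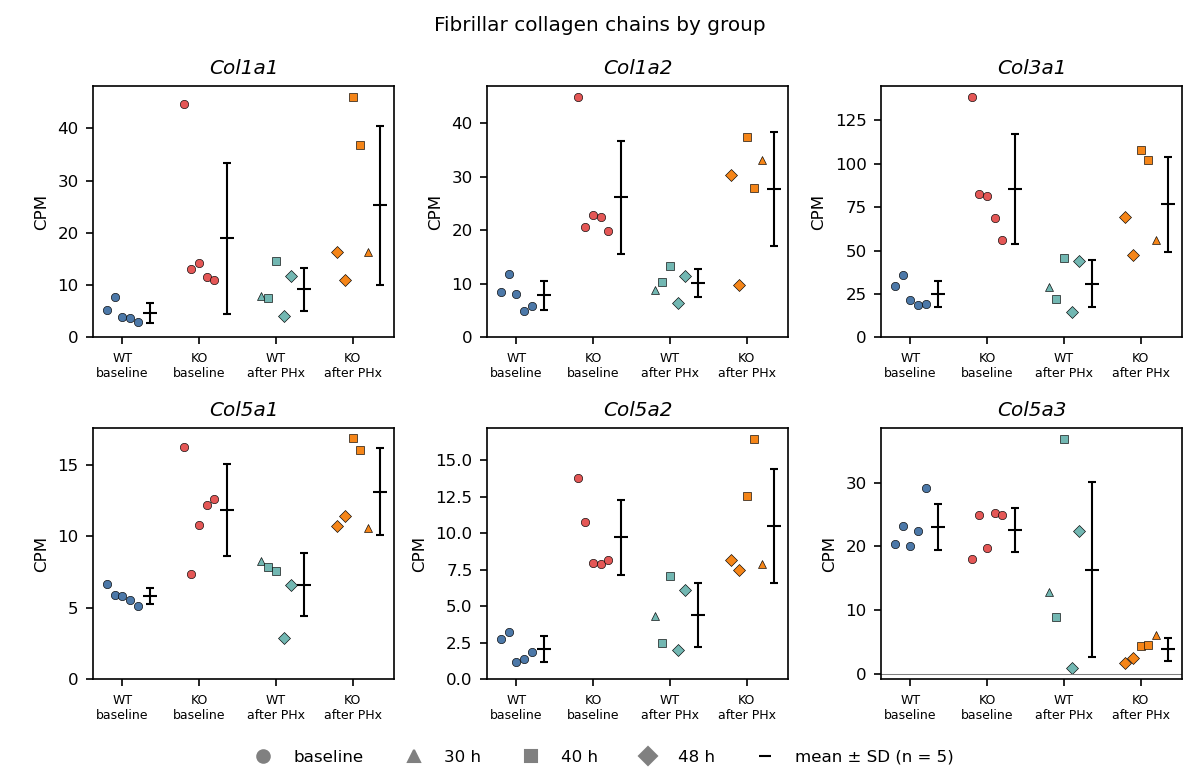
CPM of 6 fibrillar chain genes in each library (points; marker shape gives hours after PHx) with the mean and SD of each group of 5, on separate CPM axes. KO baseline library 7 stands highest of its group for Col1a1 at 44.6 CPM, and all 5 KO livers after PHx lie at or below 6.01 CPM for Col5a3.

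Markers of cells known to make fibrillar collagen, and of other liver cells, are given beside these values, where 11.1% of all genes tested were called higher. The 12 hepatic stellate cell markers summed to 134 to 202 CPM in WT and 227 to 311 CPM in KO baseline livers, and 4 of 12 (Hand2, Lhx2, Pdgfrb and Reln) were called higher. The 8 portal fibroblast markers summed to 4.4 to 8.19 CPM in WT and 19 to 28.8 CPM in KO, with 6 of 7 tested called higher. The 6 markers of activated stellate cells and myofibroblasts summed to 10.3 to 21 and 21.4 to 37.5 CPM, with 1 of 5 tested (Timp1) called higher. No marker of these lists was at 0 in a whole group. Of the 5 mesothelial markers, whose sums were 0.40 to 1.18 and 1.06 to 3.82 CPM, Upk1b was at 0 in the WT baseline group and 1 of 4 tested (Msln) was called higher. The 7 Kupffer cell and macrophage markers summed to 132 to 221 and 302 to 379 CPM with 2 of 7 called higher, and the 6 leukocyte markers to 5.3 to 8.78 and 7.46 to 26.9 CPM with 2 of 4 tested called higher. The WT and KO sums did not overlap for the stellate, portal fibroblast, activated stellate and Kupffer cell lists, nor for the endothelial list above. They overlapped for the mesothelial and leukocyte lists. The part of these cells in the collagen values was not tested.

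Fibril-associated collagens sit on the surface of fibrils. Of 9 such genes 5 were tested, and 4 were higher in KO baseline livers, against 11.1% of all genes. Col14a1 (chr15:55307750-55520803, plus strand), which binds type I fibrils through decorin, stood at 35, 43, 43.8, 29.1 and 34.5 CPM in WT and 67.8, 57.6, 76.6, 78.2 and 71.3 CPM in KO baseline livers, without overlap (1.89-fold, log2 fold change 0.92, SE 0.23, edgeR adjusted p = 0.00916). Col16a1 (chr4:130047840-130099283, plus strand) stood at 1.37, 1.95, 1.7, 1.15 and 1.42 CPM in WT and 4.58, 2.07, 3.86, 3.61 and 3.1 CPM in KO baseline livers, again without overlap (log2 fold change 1.18, SE 0.26, edgeR adjusted p = 0.00418). KO library 8 came closest to the WT range for both genes.

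Col12a1 (chr9:79598991-79718831, minus strand), a fibril-associated chain known from tissues under tension, stood at 2.6, 1.65, 3.04, 1.1 and 1.38 CPM in WT and 8.89, 4.78, 4.28, 4.15 and 3.24 CPM in KO baseline livers (log2 fold change 1.38, SE 0.42, edgeR adjusted p = 0.028). The groups did not overlap. The call was lost without KO baseline library 7 (edgeR adjusted p = 0.0813) and also without WT baseline library 2, 4 or 5. Col22a1 (chr15:71795795-72034227, minus strand), known from tissue junctions such as that of muscle and tendon, had no count in any WT baseline liver and stood at 0.597, 0.296, 0.517, 0.291 and 0.141 CPM in KO baseline livers. With 50 counts in the KO group, it was at least 12.8-fold higher, taking a floor of 3 counts over the WT group (edgeR adjusted p = 0.0149). It was too low to be tested in a fit on the 10 baseline libraries alone.

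Type VI collagen makes beaded filaments around cells, from an alpha1, an alpha2 and a further chain. Of 6 genes 5 were tested, and 2 (Col6a1 and Col6a3) were called higher in KO baseline livers, against 11.1% of all genes. Col6a1 (chr10:76708792-76726168, minus strand) stood at 8.06, 5.00, 2.98, 2.75 and 4.63 CPM in WT and 18.6, 8.83, 12.1, 12.7 and 14.4 CPM in KO baseline livers (log2 fold change 1.51, SE 0.39, edgeR adjusted p = 0.0109). Col6a3 (chr1:90765923-90843971, minus strand) stood at 4.49, 5.5, 4.53, 3.3 and 2.61 CPM in WT and 22.8, 12.6, 11.6, 13.2 and 10.6 CPM in KO baseline livers (log2 fold change 1.79, SE 0.47, edgeR adjusted p = 0.0123). Neither overlapped between the genotypes. Col6a2 (chr10:76595762-76623630, minus strand), the obligate partner, stood at 5.01, 4.8, 3.29, 1.28 and 3.44 CPM in WT and 11.8, 4.56, 5.59, 8.81 and 8.26 CPM in KO baseline livers. These groups overlapped at KO library 8, and Col6a2 missed the threshold (log2 fold change 1.13, SE 0.41, edgeR adjusted p = 0.0679), although DESeq2 called it. Without KO library 7 the log2 fold change of Col6a3 was 1.61 (edgeR adjusted p = 0.04).

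Col8a1 (chr16:57624258-57754737, minus strand), a short chain of vessel walls and the only one of its class tested, stood at 0.65, 1.00, 0.772, 0.78 and 0.459 CPM in WT and 5.54, 4.78, 3.66, 3.61 and 2.91 CPM in KO baseline livers. Every KO liver was above every WT liver (5.57-fold, log2 fold change 2.48, SE 0.61, edgeR adjusted p = 0.0087). The other short-chain gene with counts, Col8a2, had 66 counts in all libraries.

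Col18a1 (chr10:77052178-77166548, minus strand), whose C-terminal fragment is endostatin, was by far the most abundant collagen gene in this liver RNA, at 111 CPM per kb over the 20 libraries against 12.2 for Col4a1. Its levels were 1015, 852, 1058, 1153 and 1051 CPM in WT and 847, 726, 1096, 1067 and 1228 CPM in KO baseline livers. These groups overlapped, and Col18a1 was not called (log2 fold change -0.05, SE 0.24, edgeR adjusted p = 0.924). It made up 79.6 to 87.4% of the summed collagen CPM per kb in WT and 60.9 to 76.3% in KO baseline livers, ranges that did not overlap. The other 43 genes together held 23.6 to 31.1 CPM per kb in WT and 52 to 77.5 CPM per kb in KO baseline livers.

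Of the transmembrane chains, Col13a1 (chr10:61838236-61979108, minus strand), found at sites of cell adhesion, stood at 3.25, 4.4, 3.29, 3.85 and 3.81 CPM in WT and 4.88, 5.11, 6.86, 7.56 and 6.85 CPM in KO baseline livers. The groups did not overlap, yet Col13a1 was not called (log2 fold change 0.75, SE 0.40, edgeR adjusted p = 0.211). Fitted on the 10 baseline libraries alone, it was called higher (edgeR adjusted p = 0.00366), as were Col20a1, Col23a1 and Col6a2 (edgeR adjusted p = 0.0074, 0.044 and 0.0172). Col7a1 (chr9:108953586-108984875, plus strand), the anchoring fibril chain of skin, was not tested. It stood at 0.13, 0.10, 0.0515, 0.229 and 0.183 CPM in WT and 0.0996, 0.169, 0.241, 0.208 and 0.141 CPM in KO baseline livers, and at 0.131, 0, 0.114, 0.177 and 0.309 and 0.33, 0.857, 0.0763, 0.389 and 0.0473 CPM after PHx. Col28a1 (chr6:7997808-8192617, minus strand), known from peripheral nerve, had 25 counts in all. It stood at 0.13, 0, 0, 0 and 0.0459 CPM in WT and 0.199, 0, 0, 0.0415 and 0.0469 CPM in KO baseline livers, at 0 in all WT livers after PHx, and at 0, 0.154, 0, 0.0278 and 0.284 CPM in KO livers after PHx.

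The 7 tested genes not described so far were Col11a2, Col15a1, Col20a1, Col23a1, Col27a1, Col6a5 and Col6a6, and none was called at baseline. Col27a1, a fibrillar chain of cartilage named here after its values were seen, lay at 19.6 to 26.3 CPM in WT and 7.61 to 12.2 CPM in KO baseline livers. All KO livers were below all WT livers, and Col27a1 was not called (log2 fold change -1.06, SE 0.67, edgeR adjusted p = 0.295). Fitted on the 10 baseline libraries alone, it was called lower. Col15a1, the second multiplexin, lay at 3.85 to 7.05 and 3.21 to 10.2 CPM. The 14 counted genes that were not tested had at most 0.808 CPM on average in any group.

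**Figure D4:**
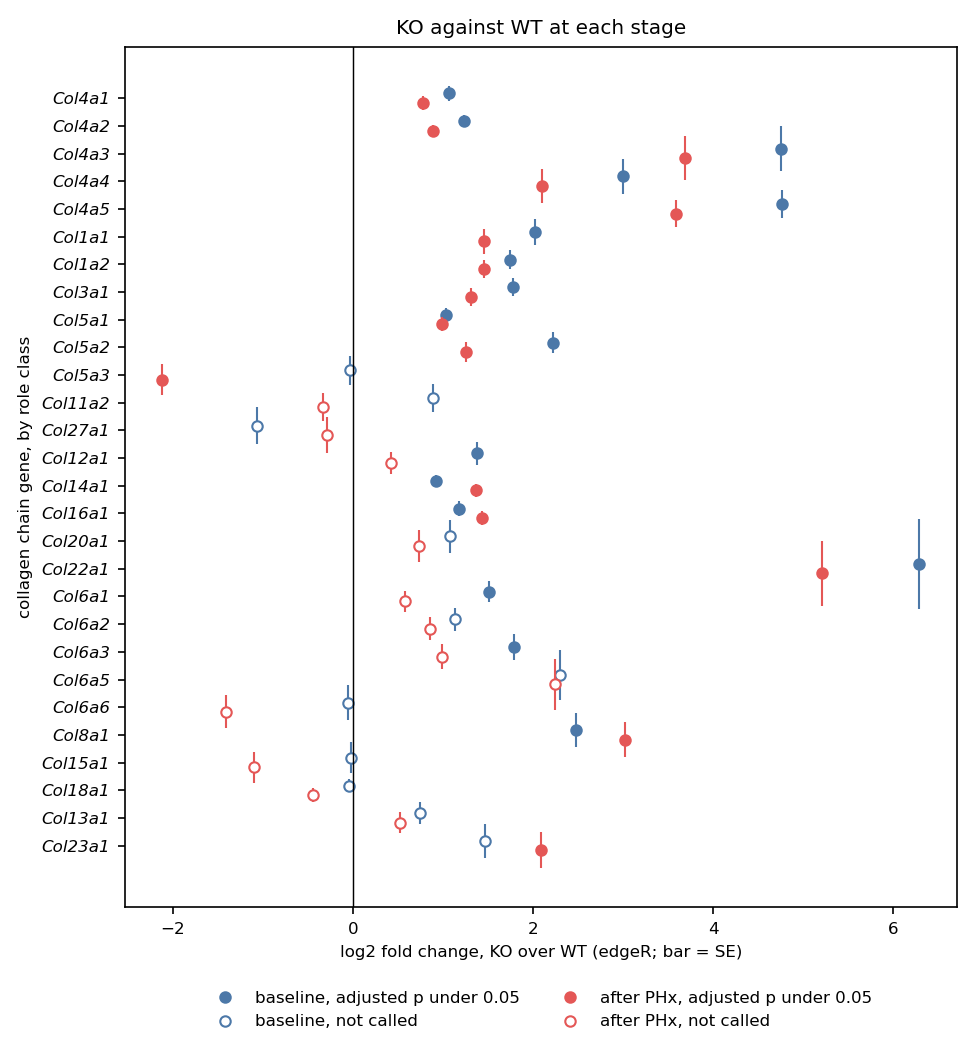
Log2 fold change of KO over WT at baseline (blue) and after PHx (red) for the 28 tested collagen chain genes, with bars of 1 SE. Filled points have an edgeR adjusted p under 0.05. The 5 tested type IV genes are filled and right of 0 at both stages, and Col5a3 is the one filled point left of 0. The fitted values of Col22a1 rest on WT groups with 0 and 3 counts and are not bounds.

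After PHx, type IV, fibrillar, fibril-associated and short-chain genes and the transmembrane gene Col23a1 were higher in KO livers, while the fibrillar gene Col5a3 was lower. Of the 28 tested genes 15 were higher in KO livers, against 16% of all genes tested, and 1 (Col5a3) was lower, against 8.2%. The median log2 fold change was 0.99 for the 28 genes and -0.01 for all genes tested. Fitted on the 10 libraries after PHx alone, 8 of 25 tested collagen genes were higher and none lower, where 8.12% and 1.57% of all genes were. The calls lost in that fit were Col1a1, Col4a1, Col4a4, Col5a1, Col5a2 and Col5a3, with adjusted p from 0.0649 to 0.168, and Col22a1 and Col23a1 were not tested in it.

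Col5a3 stood at 12.8, 8.83, 36.8, 0.886 and 22.4 CPM in WT and 1.59, 2.5, 4.31, 4.5 and 6.01 CPM in KO livers after PHx (4.34-fold lower, log2 fold change -2.12, SE 0.55, edgeR adjusted p = 0.00824). Among the WT livers it ranged from 0.886 CPM in mouse 4 at 48 h to 36.8 CPM in mouse 3 at 40 h. The lowest WT liver lay below every KO liver, so the groups overlapped. Without the 48 h libraries the log2 fold change was -1.95 (edgeR adjusted p = 0.0053). Fitted on the 10 libraries after PHx alone, Col5a3 was not called (edgeR adjusted p = 0.103).

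Col1a1 stood at 7.98, 7.44, 14.6, 4.15 and 11.6 CPM in WT and 16.2, 11, 45.9, 36.7 and 16.3 CPM in KO livers after PHx (log2 fold change 1.46, SE 0.46, edgeR adjusted p = 0.0256). The groups overlapped, and the highest KO values came from the 40 h mice 10 and 11. This call was lost without KO library 10 or 11 or without WT library 1, 2 or 4 after PHx, with adjusted p up to 0.0686. Col1a2 stood at 8.76, 10.4, 13.3, 6.45 and 11.5 CPM in WT and 30.2, 9.8, 37.4, 27.9 and 33.1 CPM in KO (log2 fold change 1.46, SE 0.33, edgeR adjusted p = 0.00295), and only KO mouse 8 fell within the WT range. Col3a1 was at 29, 21.8, 45.5, 14.4 and 43.9 CPM in WT and 69.3, 47.6, 108, 102 and 55.9 CPM in KO without overlap (log2 fold change 1.31, SE 0.32, edgeR adjusted p = 0.00587).

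Col5a1 was at 8.28, 7.83, 7.53, 2.87 and 6.56 CPM in WT and 10.7, 11.4, 16.9, 16 and 10.6 CPM in KO livers after PHx (log2 fold change 0.99, SE 0.26, edgeR adjusted p = 0.00843). Col5a2 was at 4.32, 2.48, 7.08, 1.99 and 6.08 CPM in WT and 8.18, 7.47, 12.5, 16.4 and 7.86 CPM in KO (log2 fold change 1.26, SE 0.36, edgeR adjusted p = 0.0153). Neither overlapped, and the Col5a2 call was lost without KO library 11. Col14a1 was at 14.4, 15.9, 11.5, 14.4 and 13.7 CPM in WT and 38.4, 14.9, 39.1, 33.7 and 54.3 CPM in KO (log2 fold change 1.37, SE 0.23, edgeR adjusted p = 0.000285), with KO mouse 8 alone inside the WT range. Col16a1 was at 1.57, 2.00, 1.29, 1.17 and 1.79 CPM in WT and 3.93, 4.99, 4.88, 4.00 and 3.36 CPM in KO, without overlap (log2 fold change 1.43, SE 0.26, edgeR adjusted p = 0.000547).

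Col22a1 was at 0, 0.0435, 0, 0 and 0.0687 CPM in WT and 0.479, 1.1, 0.267, 3.22 and 0 CPM in KO livers after PHx. With 3 counts in WT and 189 in KO the ratio was 50.3, with an exact 95% counting interval of 16.9 to 246 (edgeR adjusted p = 0.00406). KO mouse 11 held 116 of the 189 counts, and without it the ratio was 24.9 (8.21 to 124). KO mouse 12 had none, so the groups overlapped. Col8a1 was at 0.523, 0.0435, 0.152, 0.532 and 0.79 CPM in WT and 3.21, 1.41, 8.66, 3.00 and 0.615 CPM in KO (log2 fold change 3.02, SE 0.63, edgeR adjusted p = 0.00163), with KO mouse 12, sampled at 30 h, inside the WT range. Col23a1, a transmembrane chain, was called higher at levels of 0.038 to 0.261 CPM in WT and 0.153 to 0.719 CPM in KO (log2 fold change 2.09, SE 0.65, edgeR adjusted p = 0.0233). Its groups overlapped, and the call was lost without WT library 1, 3, 4 or 5 or KO library 7 or 8 after PHx, without the 30 h or the 48 h libraries and with no filter, with adjusted p up to 0.367.

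Col4a1 was at 82.4, 154, 88.8, 111 and 51.5 CPM in WT and 199, 171, 91.1, 121 and 256 CPM in KO livers after PHx (log2 fold change 0.78, SE 0.26, edgeR adjusted p = 0.0359). Col4a2 was at 58.2, 80.2, 45.3, 46 and 33.9 CPM in WT and 102, 121, 69.3, 86 and 111 CPM in KO (log2 fold change 0.89, SE 0.20, edgeR adjusted p = 0.00312). For both genes the genotypes overlapped. Without the 48 h libraries neither was called (edgeR adjusted p = 0.289 and 0.127), while Col4a5 was (edgeR adjusted p = 0.000331). With the time point as a term in the model Col4a1 was not called (log2 fold change 0.73, SE 0.28, edgeR adjusted p = 0.0622), nor was it without the 30 h libraries (edgeR adjusted p = 0.193). The Col4a1 call was also lost without WT library 1, 3 or 5, or KO library 7, 8 or 12, after PHx.

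The type VI chains were not called after PHx. Col6a1 was at 5.15, 5.39, 9.28, 3.79 and 7.55 CPM in WT and 5.39, 3.07, 13.3, 11.9 and 13.1 CPM in KO (log2 fold change 0.58, SE 0.38, edgeR adjusted p = 0.275). Col6a2 was at 2.92, 2.04, 3.69, 1.52 and 2.88 CPM in WT and 2.61, 1.76, 8.12, 6.23 and 4.92 CPM in KO (log2 fold change 0.85, SE 0.41, edgeR adjusted p = 0.141). Col6a3 was at 4.36, 2.48, 5.1, 2.06 and 5.73 CPM in WT and 2.16, 2.53, 16.2, 12.3 and 6.2 CPM in KO (log2 fold change 0.99, SE 0.46, edgeR adjusted p = 0.122). The 48 h KO mice 7 and 8 were lowest for all 3 chains and the 40 h KO mouse 10 was highest. Without the 48 h libraries Col6a3 was called higher in KO (edgeR adjusted p = 0.0182).

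Col12a1 was at 8.85, 8.66, 11.8, 8.19 and 3.3 CPM in WT and 5.42, 19.5, 5.23, 11.2 and 13.2 CPM in KO livers after PHx and was not called (log2 fold change 0.42, SE 0.40, edgeR adjusted p = 0.476). Col13a1 was at 9.37, 23.9, 10.8, 10.5 and 4.12 CPM in WT and 21.3, 22.1, 7.06, 7.2 and 26.3 CPM in KO, also not called (log2 fold change 0.52, SE 0.39, edgeR adjusted p = 0.352). Col18a1 was at 754, 602, 703, 489 and 589 CPM in WT and 307, 244, 686, 450.1 and 624 CPM in KO, not called (log2 fold change -0.44, SE 0.24, edgeR adjusted p = 0.2). All 3 overlapped between the genotypes. Stellate cell markers after PHx summed to 93.5 to 117 CPM in WT and 120.5 to 216 CPM in KO, with 3 of 12 called higher, against 16% of all genes tested. Portal fibroblast markers summed to 7.76 to 11.2 and 15.6 to 30.8 CPM, with 4 of 7 tested called higher. For the activated stellate list the sums were 15.1 to 44.6 and 16.1 to 54.5 CPM with 1 of 5 tested higher. The Kupffer cell and macrophage sums after PHx were 51 to 199.8 and 49.4 to 274 CPM with 1 of 7 called higher, and the leukocyte sums 3.06 to 24.9 and 3.78 to 30.6 CPM with 0 of 4 tested called. The mesothelial sums were 0.217 to 3.57 and 1.64 to 4.64 CPM with 1 of 4 tested (Wt1) called higher. Hepatocyte markers summed to 74829.6 to 127229 CPM in WT and 43959.9 to 102294 CPM in KO, with 2 of 7 (Apoa1 and Serpina1c) called lower, against 8.2% of all genes tested. The part of these cells in the values after PHx was not tested.

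After PHx the basement membrane chains Col4a1 and Col4a2 rose in both genotypes, as did Col12a1 and Col13a1, while Col14a1 and Col18a1 fell in both. In WT liver 5 of 28 genes rose (Col12a1, Col13a1, Col4a1, Col4a2 and Col5a2), against 11.4% of all genes, and 2 of 28 (Col14a1 and Col18a1) fell, against 8.68%. In KO liver 4 of 28 rose (Col12a1, Col13a1, Col4a1 and Col4a2), against 17.5%, and 3 of 28 (Col14a1, Col18a1 and Col5a3) fell, against 12.1%. Without KO library 10 after PHx 6 of 29 tested genes fell in KO, adding Col4a3, Col4a5 and Col6a3, against 17.6% of all genes in that fit. With the mouse as a block 3 rose in WT and 2 in KO, against 6.06% and 10.7%. The median log2 fold change of the 28 genes was 0.09 in WT and -0.31 in KO, where all genes tested had 0.04 and 0.10. These responses share their libraries with the genotype comparisons above.

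Cell markers in the same responses are set beside these counts. Of the 12 stellate markers 3 fell in WT (Angptl6, Colec11 and Vipr1), and in KO 5 fell (Angptl6, Hand2, Lrat, Ngfr and Reln) and Hgf rose. Their sums, given above for each group, lay lower after PHx than at baseline without overlap in both genotypes. Of the 8 endothelial markers Fcgr2b, Kdr and Oit3 fell in both genotypes, and Lyve1 rose in KO. The endothelial sums, also given above, likewise lay lower after PHx without overlap in both genotypes. Among the 7 portal fibroblast markers tested 3 rose in WT and 1 in KO, with none lower. Timp1 was the 1 activated stellate marker of 5 tested that rose, in both genotypes. Of 6 cholangiocyte markers tested 3 rose in KO and 0 in WT. Of the 7 Kupffer cell and macrophage markers 1 rose and 1 fell in WT and 3 fell in KO, and of 4 leukocyte markers tested 1 rose and 2 fell in WT and 3 fell in KO. Of 4 mesothelial markers tested 2 rose in WT and 1 fell in KO, and of 7 hepatocyte markers Serpina1c and Ttr fell in both genotypes. The part of these cells in the collagen responses was not tested.

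Col4a1 rose 3.09-fold in WT (log2 fold change 1.63, SE 0.27, edgeR adjusted p = 0.000499) and 2.53-fold in KO (log2 fold change 1.34, SE 0.27, edgeR adjusted p = 0.00209). It was higher after PHx in 4 of 4 WT and 5 of 5 KO mice with both samples numbered. Col4a2 rose 2.46-fold in WT (log2 fold change 1.30, SE 0.20, edgeR adjusted p = 0.000346) and 1.94-fold in KO (log2 fold change 0.96, SE 0.20, edgeR adjusted p = 0.00291), in the same numbers of mice. For both genes every liver after PHx was above every baseline liver of its genotype. Col4a5 did not pass the test in either genotype (0.15 in WT, edgeR adjusted p = 0.866; -1.03 in KO, edgeR adjusted p = 0.0741). All 5 KO mice nevertheless had less Col4a5 after PHx than before, and it was called lower without KO library 10 (edgeR adjusted p = 0.0382). Its level per kb relative to Col4a1 ran from 0.038 to 0.253 in KO livers after PHx.

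Col14a1 fell 2.66-fold in WT (log2 fold change -1.41, SE 0.23, edgeR adjusted p = 0.000493) and 1.95-fold in KO (log2 fold change -0.96, SE 0.23, edgeR adjusted p = 0.00535), and was lower in all 9 paired mice. Col18a1 fell 2.15-fold in KO (log2 fold change -1.10, SE 0.25, edgeR adjusted p = 0.00392) and 1.64-fold in WT (log2 fold change -0.71, SE 0.24, edgeR adjusted p = 0.0453), also in all 9. No liver after PHx overlapped the baseline livers of its genotype for either gene. The WT call for Col18a1 was lost without any 1 of WT baseline libraries 1 to 5 or WT libraries 2, 3, 4 and 5 after PHx, with adjusted p up to 0.213 over all alternatives. Its share of collagen CPM per kb was 62.3 to 74% in WT and 34.2 to 59.2% in KO livers after PHx. Col5a3 fell 5.99-fold in KO (log2 fold change -2.58, SE 0.56, edgeR adjusted p = 0.00331), where all livers after PHx lay below all baseline livers, and was not called in WT (log2 fold change -0.50, SE 0.52, edgeR adjusted p = 0.544).

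Col12a1 rose 4.19-fold in WT (log2 fold change 2.07, SE 0.42, edgeR adjusted p = 0.00246), without overlap. In KO it rose 2.15-fold (log2 fold change 1.10, SE 0.40, edgeR adjusted p = 0.0448) and the stages overlapped. With the mouse as a block the KO call was lost (edgeR adjusted p = 0.0983), as it was without any 1 of KO baseline libraries 8, 10, 11 and 12 or KO libraries 8, 11 and 12 after PHx. It was also lost with a time point term (edgeR adjusted p = 0.0524) and without the 30 h or the 48 h libraries (edgeR adjusted p = 0.0882 and 0.0855). Col13a1 rose 3.15-fold in WT (log2 fold change 1.65, SE 0.40, edgeR adjusted p = 0.00758) and 2.69-fold in KO (log2 fold change 1.43, SE 0.39, edgeR adjusted p = 0.0126). In KO the 30 h and 48 h mice were at 21.3 to 26.3 CPM and the 40 h mice at 7.06 and 7.20 CPM. With the mouse as a block Col13a1 was not called (edgeR adjusted p = 0.0712 in WT and 0.0593 in KO), nor was Col5a2 in WT (edgeR adjusted p = 0.167 against 0.0432 without the block). Without the 48 h libraries the KO call for Col13a1 was lost as well (edgeR adjusted p = 0.0578). The Col5a2 call was also lost without the 30 h libraries (edgeR adjusted p = 0.0545) and without WT baseline library 3, 4 or 5 or WT library 1, 3 or 5 after PHx.

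**Figure D5:**
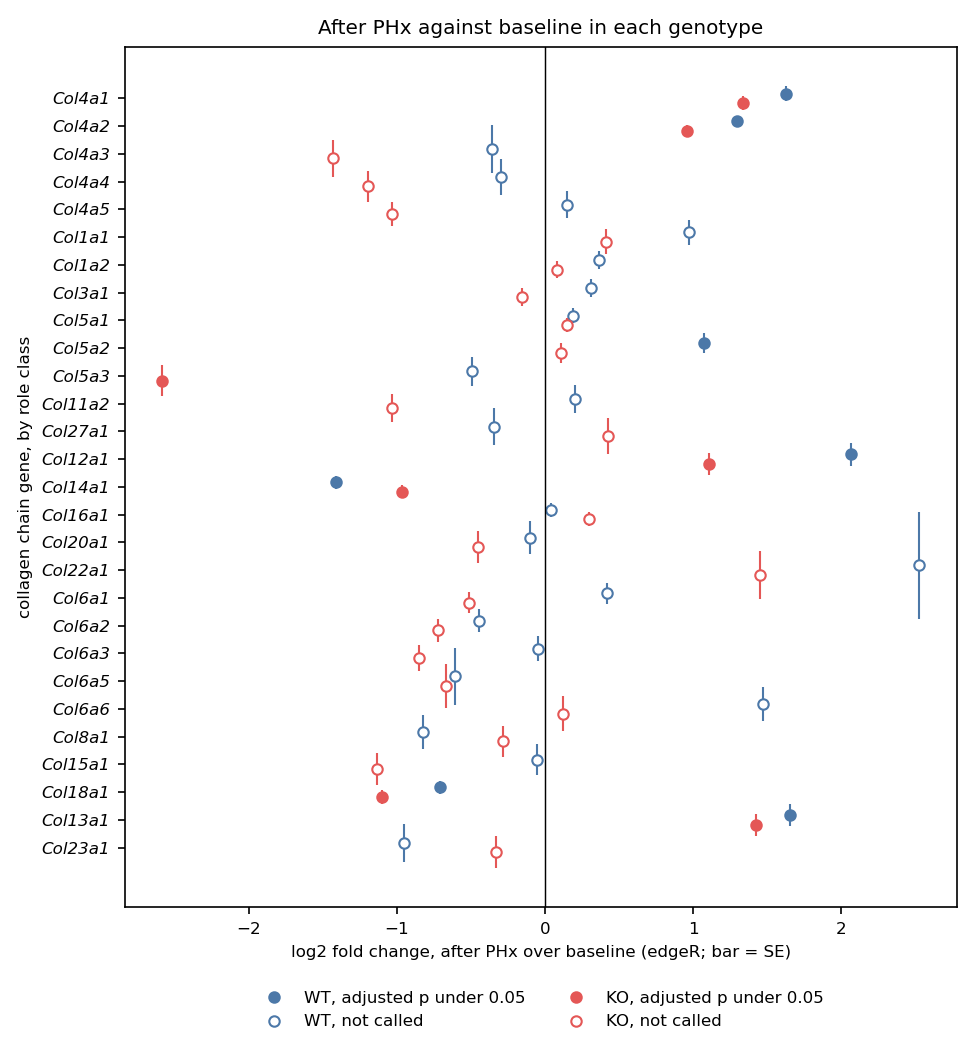
Log2 fold change after PHx over baseline in WT (blue) and KO (red) for the 28 tested collagen chain genes, with bars of 1 SE. Filled points have an edgeR adjusted p under 0.05. Col4a1 and Col4a2 are filled right of 0, and Col14a1 and Col18a1 left of 0, in both genotypes.

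The difference between these responses, KO minus WT, was called for none of the 28 genes by edgeR or DESeq2, where 0.164% of all genes were called higher and 0.225% lower. At an unadjusted p under 0.05 there was 1 gene, Col5a3, with a difference of -2.09 on the log2 scale (SE 0.75, edgeR adjusted p = 0.226). It was called without WT library 4 after PHx. For Col4a5 the difference was -1.18 (SE 0.64, edgeR adjusted p = 0.435).

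Collagen assembly needs enzymes and partners beyond the chains. Of 20 genes that modify and fold the chains, 19 were tested, and at baseline 4 were higher and 2 lower in KO, against 11.1% and 4.89% of all genes tested. The summed CPM of the list was lower in KO, at 2533 to 3271 in WT and 2001 to 2231 in KO baseline livers without overlap. Most of it was P4hb, the beta subunit of prolyl 4-hydroxylase, named here after its values were seen, at 1583 to 2188 CPM in WT and 1308 to 1534 CPM in KO, which was not called (log2 fold change -0.38, SE 0.21, edgeR adjusted p = 0.225). P3h4, which forms a complex with lysyl hydroxylase, was 6.96-fold higher (log2 fold change 2.80, SE 0.43, edgeR adjusted p = 0.000146), and Plod2, the telopeptide lysyl hydroxylase, 4.6-fold (log2 fold change 2.20, SE 0.59, edgeR adjusted p = 0.0145). P3h3 was 2.77-fold higher (edgeR adjusted p = 0.00297). The 2 lower genes were Mia2 and Mia3, which load large cargo such as procollagen into transport carriers. After PHx 7 of the 19 were higher and 1 (Ppib) lower, against 16% and 8.2% of all genes tested.

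Of 13 genes for procollagen processing and cross-linking, 11 were tested and 5 were higher in KO at baseline and 5 after PHx, against 11.1% and 16% of all genes, with none lower. Lox, the lysyl oxidase that starts cross-linking, was 8.57-fold higher at baseline (log2 fold change 3.10, SE 0.86, edgeR adjusted p = 0.018), a call lost without WT baseline library 4 or KO baseline library 7. Loxl1 was 4.32-fold and the N-proteinase Adamts14 3.00-fold higher (edgeR adjusted p = 0.00177 and 0.0196), and the Adamts14 call was lost without WT baseline library 3. Among 10 receptors 8 were tested, and 2 were higher at baseline (Ddr1 and Mrc2) and 2 after PHx (Ddr1 and Itga2), against 11.1% and 16% of all genes. After PHx Itga2 lay at 0.0343 to 0.609 CPM in WT and at 0.599, 20.1, 0.229, 10.1 and 0.0947 CPM in KO. Only KO mice 8 and 11 were above the WT range. Ddr1, the collagen-binding receptor kinase of epithelial cells, lay at 0.321 to 2.99 CPM in WT and 12.7 to 39.9 CPM in KO (log2 fold change 4.26, SE 0.74, edgeR adjusted p = 0.000564). Mrc2, which takes up collagen fragments, was 3.62-fold higher (edgeR adjusted p = 0.00842).

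All 12 matrix partners were tested, and 6 were higher in KO at baseline and 4 after PHx, against 11.1% and 16% of all genes, with none lower. Nid1, which bridges type IV collagen and laminin, lay at 8.62 to 12.5 CPM in WT and 47.4 to 62.2 CPM in KO baseline livers (log2 fold change 2.31, SE 0.49, edgeR adjusted p = 0.00297). Tnc lay at 0.321 to 0.85 and 2.25 to 4.78 CPM (log2 fold change 2.72, SE 0.36, edgeR adjusted p = 4.12e-05). The fibril-binding proteoglycan Lum lay at 4.31 to 8.05 and 20.2 to 52.1 CPM (log2 fold change 2.44, SE 0.42, edgeR adjusted p = 0.000454). The difference of the PHx responses was called for no gene of these 4 lists.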

How the data were processed

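The authors deposited 1 file of raw counts per library, reads per Ensembl gene with no normalisation, per the labels and the values, which are all whole numbers. Per the series' design text, TruSeq libraries were made from 1000 ng of RNA with a RIN score over 8, and uniquely mapped reads on mm10 were counted. The submitters' processing notes name FastQC 0.11.5 and Trimmomatic 0.36, while the design text names fastp for trimming. The annotation release, strand setting, aligner and counter are not given in the sources used here. Genes that share exon bases on opposite strands can therefore share counts.

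Symbols, coordinates and exon lengths came from GENCODE M21 (GRCm38), which holds 46005 of the 46603 identifiers, and promoter windows from RefSeq GRCm38.p6. Of the identifiers, 21018 had no count. edgeR 4.0.16 in R 4.3.3 was run with TMM scaling, the filterByExpr filter on the 4 groups and a two-sided quasi-likelihood test on 4 group means over all 20 libraries. p-values were adjusted by Benjamini-Hochberg over all 14661 genes tested in a contrast, with calls at an adjusted p under 0.05. The SE printed and drawn is the absolute log2 fold change divided by the square root of the F statistic, not an SE reported by edgeR. CPM use TMM-scaled totals, and CPM per kb use the union exon length. The steps were run on counts simulated with the fitted spread and with as many genes raised as lowered. The KO response to PHx and the difference of the responses were not simulated. That run checked the steps only and bears on no result here. No pair of libraries of a group agreed within sampling noise in a chi-square test over genes.

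Per the labels both stages were sampled in the same mice, and the sample titles pair 9 mice by number. Residuals of the 9 same-mouse pairs correlated at -0.05 to 0.15 (median 0.04) and those of 41 other pairs at -0.23 to 0.26 (median -0.02). Alternatives were DESeq2, RLE scaling, library size alone, no filter, only the 10 libraries compared, the mouse as a block, a time point term and leaving out each library, and, chosen after seeing the data, leaving out the 48 h or the 30 h libraries.

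The collagen genes and all lists were chosen with earlier results of these data known. Values in every library are given for genes called in any comparison with a mean of at least 1 CPM in a group, the highest gene per kb of each class, and the partners of such genes in head-to-head pairs and trimers. For the lists of assembly genes, the 3 called genes with the greatest change at baseline are named.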

Additional observations from a re-analysis of the deposited data

Results flagged for a closer look

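In groups of 5 libraries, the highest or lowest value of 6 groups among 94 examined stood apart from the other 4 by more than Dixon's 95% critical value, and chance gives about 1 in 20. Of these, 5 were in KO baseline library 7: Col1a1 at 44.6 CPM, Col1a2 at 44.9 CPM, Col6a3 at 22.8 CPM, Col12a1 at 8.89 CPM and Col28a1 at 0.199 CPM. These genes are not independent of each other, since they were measured in 1 library. The remaining value was Col4a4 at 3.48 CPM in KO baseline library 10, which also held the highest Col4a3 and Col4a5 of its group. KO baseline library 7 also held the highest summed markers of its group for cholangiocytes (384 CPM), portal fibroblasts (28.8 CPM), Kupffer cells and macrophages (379 CPM), leukocytes (26.9 CPM) and mesothelial cells (3.82 CPM). It held the lowest sums for hepatocytes (80463 CPM) and for sinusoidal endothelial cells (266 CPM). The highest sums for stellate cells (311 CPM) and activated stellate cells (37.5 CPM) were in KO baseline libraries 11 and 8. The part of these cells in the collagen values of library 7 was not tested.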

How the results depend on the processing

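Of 58 called values of single genes, 40 kept their direction and call in every alternative run for them, 16 lost the call in at least 1, and none changed direction. The other 2, both of Col22a1, kept the call wherever it was tested but could not be tested with only the 10 libraries compared, where the filter on low counts removed it. In all, 893 of 971 such recomputed values kept the call. The counts of called collagen genes moved in the following settings, among others. At baseline, only the 10 libraries compared gave 1 lower gene (Col27a1) against 0 and 20 higher against 17, with Col13a1, Col20a1, Col23a1 and Col6a2 gained and Col22a1 not tested, and called 21.4% of all genes higher and 18% lower. After PHx, the same setting gave 8 higher against 15 and 0 lower against 1, with 8.12% and 1.57% of all genes called. Leaving out the 48 h libraries gave 13 higher and 2 lower, with 8.5% and 3% of all genes called. Leaving out the 30 h libraries gave 13 higher, with 15.1% of all genes called higher. The replicate block, with the mouse as its term, gave 3 higher in the WT response against 5 and 2 higher in the KO response against 4. It called 6.06% and 10.7% of all genes higher, and changed no other call of a named gene. Without the 48 h libraries the KO response also had 2 higher, with 9.01% of all genes higher. A time point term and only the 10 libraries compared each gave 3 higher and 4 lower in the KO response. These settings called 16.7% and 13.1% of all genes higher, and 15.2% and 7.54% lower. Library size alone gave 7 higher in the WT response, with 25.9% of all genes higher. For genes that fell in the WT response, RLE size factors, library size alone, no filter and leaving out the 48 h libraries each gave 1 against 2, with Col18a1 lost. In those settings 3.36 to 7.98% of all genes fell. Leaving out each library in turn gave 16 to 17 higher and 0 lower at baseline, 12 to 16 higher and 1 to 2 lower after PHx, 4 to 6 higher and 1 to 2 lower in the WT response, 3 to 5 higher and 3 to 6 lower in the KO response, and 0 higher and 0 to 1 lower for the difference. The 6 came without KO library 10 after PHx and added Col4a3, Col4a5 and Col6a3. The 2 lower after PHx came without WT library 2 or KO library 10 and added Col6a6, where 7.99% and 14.4% of all genes were lower. Library size alone, without TMM, moved the median of all genes to 0.45 at baseline and 0.37 after PHx on the log2 scale, and called 22 and 18 collagen genes higher, where it called 24% and 26.6% of all genes higher. The causes were not tested, except that fits on fewer libraries have fewer samples. Genes under about 1 CPM rest on few counts, and a change there may not be detectable at this depth.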

Other observations

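The 3 genes Col2a1, Col11a1 and Col9a2, whose collagens are known from cartilage, were removed by the filter on low counts and had their counts mainly in KO livers after PHx. Col2a1, the main chain of cartilage fibrils, had 0 counts in the other 15 libraries and 8, 13, 0, 5 and 5 counts in KO mice 7, 8, 10, 11 and 12 after PHx. Against a floor of 3 counts over the WT group this is at least 8.24-fold higher. Col11a1, its partner, had 5, 10, 0, 12 and 7 counts in the same KO livers and 1 count in all WT livers after PHx. The ratio was 27.1, with an exact 95% counting interval of 4.55 to 1102. Col9a2 had 34, 89, 1, 20 and 10 counts there, and 1, 5, 1, 7 and 0 counts in WT mice 1 to 5 after PHx. In all 3 genes the 40 h KO mouse 10 had 0 or 1 count. With no filter, Col2a1 and Col11a1 were called higher in KO after PHx (edgeR adjusted p = 0.029 and 0.028), while Col9a2 was not (edgeR adjusted p = 0.0559). Of the 7 alternatives that tested Col9a2 in this comparison, 3 called it higher (lowest edgeR adjusted p = 0.00983). For the KO response to PHx 7 of 7 called it higher, and for the WT response 1 of 11. These calls are a description, since the genes were chosen by the same values. These genes were named after their values were seen, and the intervals cover counting error only.

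Col25a1, a transmembrane chain, had 75 of its 149 counts in 1 library, WT mouse 5 after PHx, which was 2.58 CPM. Col27a1 after PHx was at 7.06, 22, 8.26, 50.6 and 2.13 CPM in WT and 23.6, 37.1, 3.7, 4.95 and 3.88 CPM in KO livers. Its highest value, in WT mouse 4 at 48 h, fell in the library with the lowest Col5a3. In KO the 48 h mice 7 and 8 held the highest Col27a1 and the lowest Col5a3 of their group.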
